A study of Mus musculus with 36 samples.

Results

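The MHC class II genes, the chaperones that load their products and the gene of their master regulator were followed as open chromatin in mouse dendritic cells given microbial ligands. The genes were Ciita, H2-Ab1, H2-Aa, H2-Eb1, Cd74, H2-DMa and H2-DMb1. A peak was included when its deposited position overlapped the body of one of these 7 genes or the 10 kb to either side, which gave 58 of 119751 peaks. All 58 passed the filter on low counts. Peaks are named here by gene and by the distance of the peak's centre from the gene's start, so that Ciita +16.2 kb lies downstream of the start, and a peak that covers the start is called the start peak. Positions are counted from 1 on the mouse build mm10.

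MHC class II molecules present peptides from the endosome to helper T cells. An α chain and a β chain pair in the endoplasmic reticulum with the invariant chain Cd74, which blocks the groove, and H2-DM later removes the last piece of it so that peptide can bind. Transcription depends on a complex of RFX, CREB and NF-Y factors that sits on the X and Y boxes just upstream of each start and on CIITA, a coactivator that does not bind DNA itself. Ciita has several alternative promoters used by different cell types, and in dendritic cells its transcription is known to be shut down during maturation while class II already made is kept at the surface.

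Promoters of H2-Aa, H2-Eb1 and H2-DMb1 are shown because their start peaks cover the sites that RFX and NF-Y are known to occupy. Start peaks are set beside the other peaks of each gene below. Promoter sequences of 4 of the 7 genes were matched by symbol in a RefSeq table of build GRCm38.p6, with H2-DMa the one not printed, and Ciita, H2-Ab1 and Cd74 are named only. The 130 bases before the start are given 5′ to 3′ on the gene's strand, for H2-Aa (chr17:34287824-34287953, minus strand), H2-Eb1 (chr17:34305737-34305866, plus strand) and H2-DMb1 (chr17:34153061-34153190, plus strand). Capitals mark GCAAC (a core of the X1 box), TGACGTCA (the X2 box) and CCAAT on either strand (the Y box, written ATTGG where it lies on the other strand).
H2-Aa: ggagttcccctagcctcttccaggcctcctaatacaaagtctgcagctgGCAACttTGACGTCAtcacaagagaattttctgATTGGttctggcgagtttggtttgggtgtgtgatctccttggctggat
H2-Eb1: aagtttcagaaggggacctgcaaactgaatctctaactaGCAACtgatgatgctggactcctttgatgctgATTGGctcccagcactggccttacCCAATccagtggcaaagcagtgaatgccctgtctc
H2-DMb1: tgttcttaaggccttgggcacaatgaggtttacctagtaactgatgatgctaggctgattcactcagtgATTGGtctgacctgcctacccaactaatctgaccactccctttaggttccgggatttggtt
H2-Aa held all 3, with GCAAC from base -81 to -77 before the start, TGACGTCA from -74 to -67 and ATTGG from -48 to -44. H2-Eb1 held GCAAC from -91 to -87 and CCAAT on both strands, at -59 to -55 and -35 to -31. Of these 3 motifs, H2-DMb1 held only CCAAT in this stretch, at -61 to -57. H2-Eb1 and H2-DMb1 shared the 13 letters aactgatgatgct, which overlap the GCAAC of H2-Eb1 and occurred in 3 of 32851 promoters of the table (0.0091%). Over those promoters, searched on both strands over 250 bases before and 50 after each start, TGACGTCA occurred in 1.79%, GCAAC in 35.2% and CCAAT in 37.4%. A match of letters is a description and not a bound site.

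The assay was ATAC-seq, where a transposase cuts and tags DNA at open chromatin. Bone marrow of female C57BL/6 mice, 6 to 8 weeks old, had been cultured with GM-CSF at 15 ng/mL, and nuclei of 50000 cells were used for each library after 6 h with ligand. By their labels the ligands were Zymosan depleted (Z), 3',3'-cGAMP (cG), SeV (S), HMW (H), LPS (L) and PAM (P), and the control libraries are given as Ctrl. With 6 single ligands, 8 pairs (PL, PH, LH, PS, PcG, ScG, ZS and ZcG), 3 triplets (PLH, PScG and ZScG) and control there were 18 groups of 2 libraries. LPS is sensed by TLR4, 3',3'-cGAMP by STING, and zymosan, a yeast cell wall preparation, by Dectin-1. The labels do not say whether the 2 libraries of a group came from separate mice or cultures, so p-values measure the spread between these libraries, which may be technical. Such cultures hold macrophage-like and dendritic-like cells, and in bulk chromatin a change in the share of cells and a change within cells cannot be told apart.

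Libraries held 8181254 to 21985891 counts outside the mitochondrial genome. The mitochondrial share of all counts was 44.1% to 63.1%, and its group means were 58.3% to 63.0% in control, Z, ZcG, ScG and ZScG but 44.4% to 54.5% in the other 13 groups. All 8 dendritic and myeloid genes on the marker list had a peak at the start or, where the strand was not known (Csf1r, Spi1 and Cd86), at either end of the gene, with a summed level of 171 to 217 CPM by group (CPM is the usual per-library scale of counts, here over all counts outside the mitochondrial genome), although Zbtb46, a dendritic cell gene, reached only 1.67 CPM in its highest library. Of macrophage genes, Adgre1 had 11.3 to 28.8 CPM by library, Mertk 11 to 20.1 and Cd68 48.8 to 74.8. Of B cell genes, Cd79a and Pax5 had no peak at the start and Ms4a1, read at both ends, had 1.26 to 7.9 CPM by group, with 1.42 in control. Of the neutrophil list S100a8 alone had a start peak (1 of 5), at 7.25 to 18.9 CPM by group and highest in control, and of the T cell list Cd4 alone (1 of 4) had a peak, read at both ends of the gene, at 3.93 to 7.64 CPM. The part of cell composition and of the mitochondrial share in the results below was not tested.

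Against control, tests of the 58 peaks that passed were mostly higher. Over the 17 stimulations, 191 of 986 tests of 1 peak in 1 stimulation were higher (19.4%, against 13% of all peaks tested) and 37 were lower (3.75%, against 12.3%), with an adjusted p under 0.05 by edgeR's quasi-likelihood test. The median log2 fold change was 0.29. A test of any difference among the 18 groups called 33 of 58 peaks, against 62.5% of all peaks. In all, 29 peaks were higher in at least 1 stimulation, 8 were lower in at least 1, and 21 were not called in any. The matching shares of all peaks were not counted, so whether these counts are unusual cannot be read from them. Tests of the 17 stimulations share the same 2 control libraries: without control replicate 1 the count of higher tests was 94, and without control replicate 2 the count of lower tests was 16. Scaling to total counts shifted the median of all peaks by up to 0.45 on the log2 scale and raised the share of higher tests among those called from 83.8% to 93.8% for the 58 peaks and from 51.4% to 76.3% for all peaks.

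The stimulations differed in how many of the 58 peaks they opened. The triplets PScG and ZScG each raised 21 of 58, against 19% and 16.2% of all peaks, and PLH raised 9, against 14.9%. Among pairs, ZS raised 18 (14.4% of all peaks), ScG 15 (14.4%), PS 14 (17.3%), PcG 13 (16.8%), ZcG 11 (11.4%), PL 10 (13.8%), PH 7 (13.6%) and LH 4 (11.3%). Among single ligands, L raised 13 (11.3% of all peaks), S 12 (14.1%), cG 10 (11.6%), P 6 (11.1%), H 5 (5.23%) and Z 2 (4.16%). As shares of 58, the counts of P, PH, LH and Z lay below those of all peaks, and the other 13 lay above. For P, PH, Z and PLH the margin was less than 1 peak. No peak passed as lower with H (5.44% of all peaks) or S (13.8%), where 0 and 2 had an unadjusted p under 0.05 and DESeq2 called 0. LH lowered 4 (10.4% of all peaks). L (11.1%), cG (11.6%), PH (12.8%), ScG (13.3%), ZcG (10.3%), PLH (14.7%) and ZScG (16.1%) lowered 3 each. PL (13.5%), PS (16.2%), PcG (16.2%), ZS (14%) and PScG (18.1%) lowered 2 each, and P (9.41%) and Z (1.75%) 1 each.

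**Figure D1:**
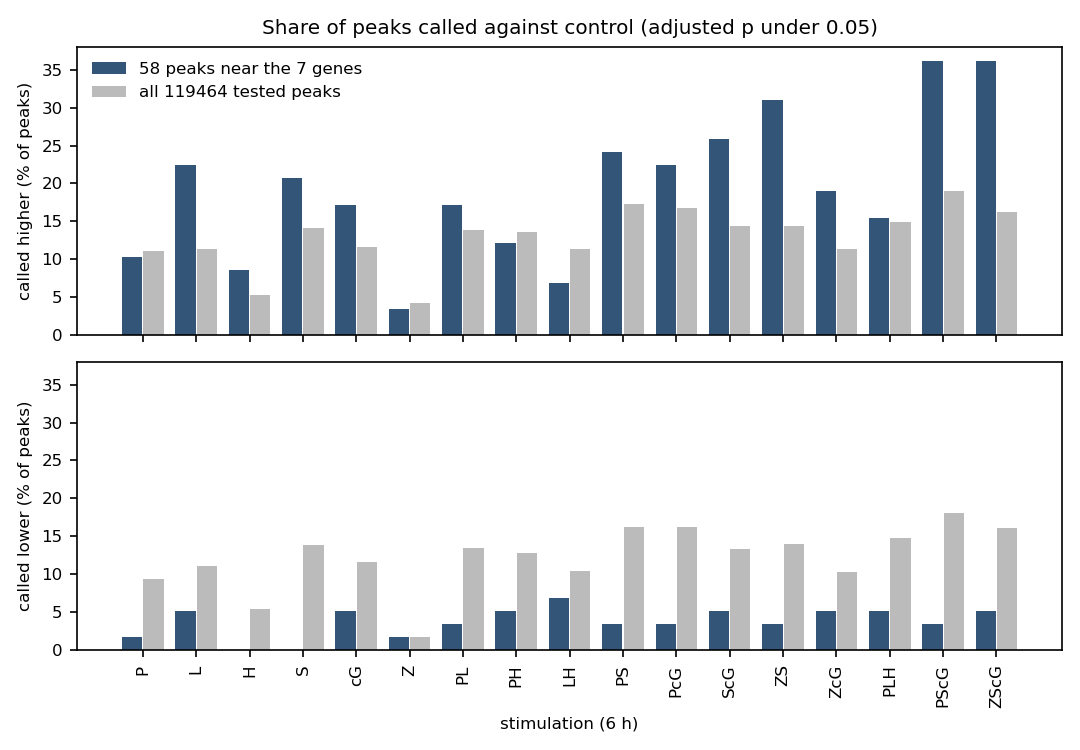
Bars give the percentage of peaks with an adjusted p under 0.05 and higher (upper panel) or lower (lower panel) accessibility than control for each of the 17 stimulations, for the 58 peaks near the 7 genes (blue) and all 119464 tested peaks (grey). The blue bars are tallest for PScG and ZScG, at 36.2% higher each, and the blue bars of lower peaks do not exceed 6.9%.

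**Figure D2:**
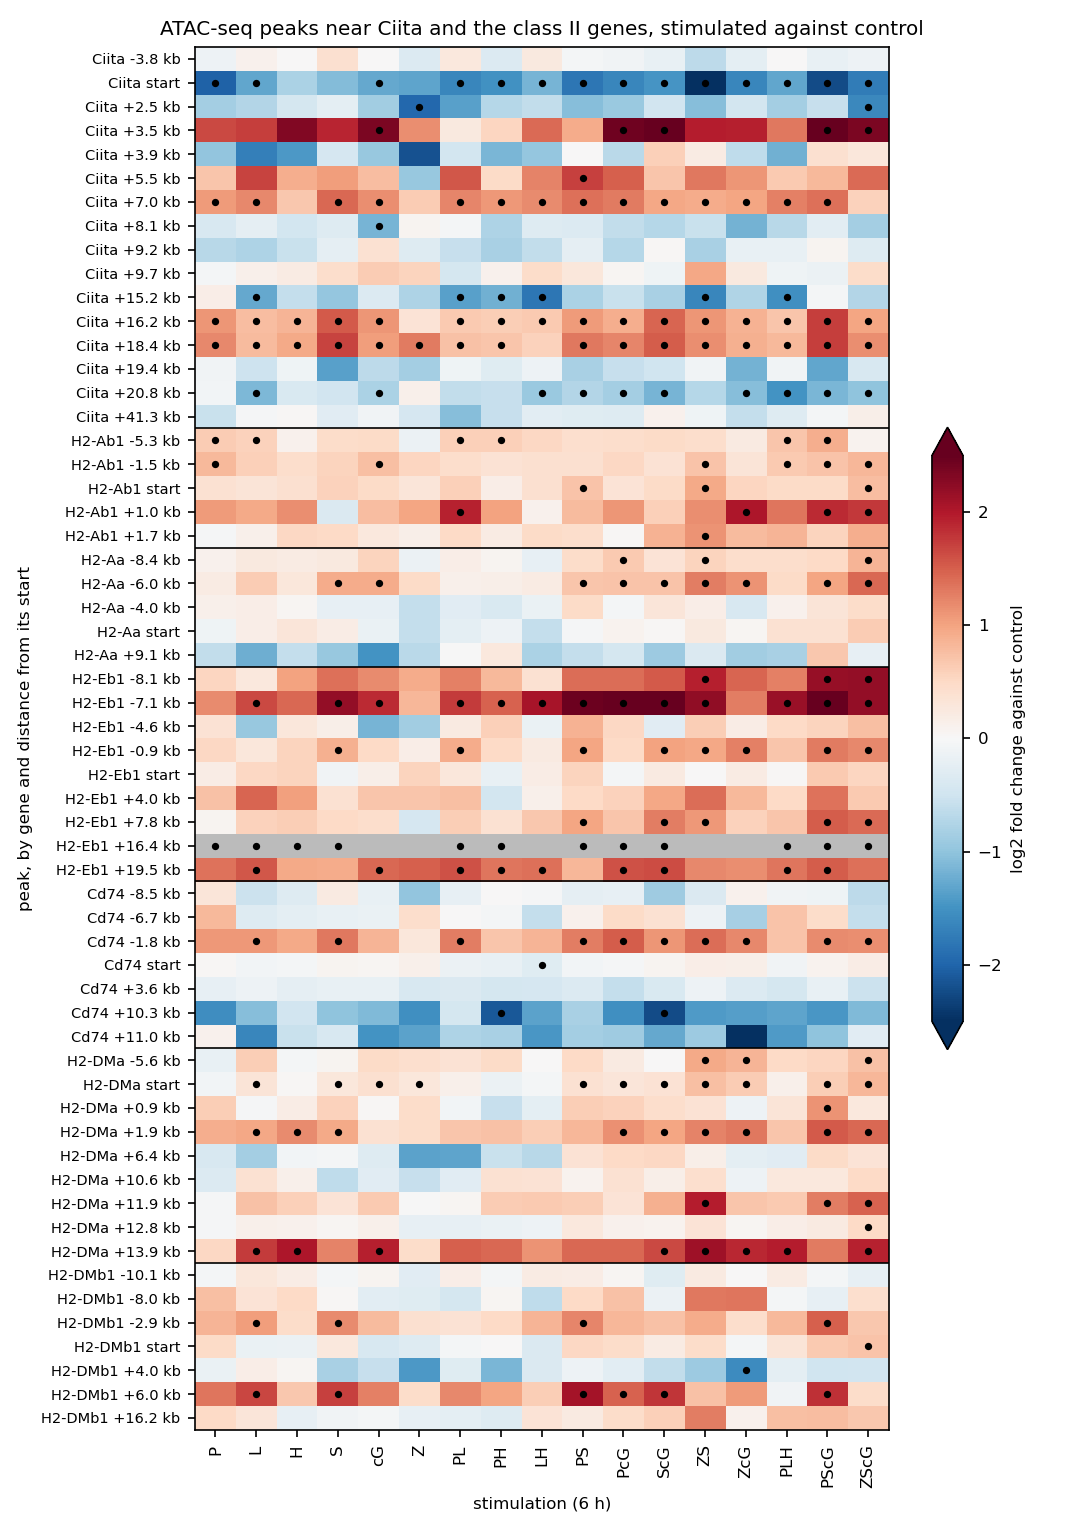
Colours give the log2 fold change against control of each of the 58 peaks (lines of the grid, grouped by gene and ordered by distance from the start) in each of the 17 stimulations (columns), and dots mark an adjusted p under 0.05. The peak H2-Eb1 +16.4 kb is grey because it had 0 counts in both control libraries; blue dotted cells lie mostly at Ciita, and the other genes carry mostly red ones.

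Ciita, the gene of the class II transactivator, had closing and opening peaks side by side. Of its 16 peaks, 5 were higher and 5 lower in at least 1 stimulation, for which no share of all peaks was counted. Of 272 tests, 52 were higher (19.1%, against 13% of all peaks) and 33 lower (12.1%, against 12.3%). Its start peak closed in 14 of 17 stimulations, while peaks inside the gene at +7.0, +16.2 and +18.4 kb opened in 14, 16 and 16. Its share of lower tests was thus near that of all peaks, and the other 6 genes together had the remaining 4 of the 37 lower tests.

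The Ciita start peak (chr16:10479807-10480231, 425 bp, over the annotated start of the gene) had 3.28 and 4.34 CPM in the control libraries. It had 0.917 and 0.939 CPM with P, 0.919 and 2.1 with L, and 2.92 and 1.38 with H. It had 1.7 and 1.91 CPM with S, 1.27 and 1.86 with cG, and 1.71 and 1.36 with Z. All 34 stimulated libraries, from 0.537 to 2.92 CPM with a median of 1.26, lay below both control libraries, which held for 5.42% of all peaks. The lowest level was reached with ZS (0.537 and 0.645 CPM), a log2 fold change of -2.66 with a standard error (SE) of 0.546 (adjusted p = 3.8e-05). With P it was -2.03 ± 0.487 (SE, adjusted p = 0.000654) and with PScG -2.23 ± 0.503 (SE, adjusted p = 0.000117). The stimulations that did not pass were H, at -0.80 (adjusted p = 0.259), S, at -1.08 (adjusted p = 0.0557), and Z, at -1.32 (adjusted p = 0.0875). Of the 17 steps between neighbouring group means, ranked by level, only the one from H up to control separated 2 groups whose libraries did not overlap. The calls for L, cG and PLH were lost without control replicate 2, the higher of the controls here, and under total-count scaling. They were also lost without L replicate 1, either cG library and PLH replicate 2, respectively, and that for PLH after thinning to one depth. The ZScG call was lost without ZScG replicate 1, while those for P and PScG held in all 12 alternatives tried. Calls of pairs, ZS among them, were not followed through the alternatives.

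Inside the gene, Ciita +7.0 kb (chr16:10486652-10487276) was the Ciita peak with the highest mean CPM. Control had 3.28 and 4.63 CPM there, and S, the highest group, had 12.4 and 9.1. Single ligands P (6.72 and 9.97), L (7.49 and 10.7) and cG (9.63 and 8.38) were also high, whereas H (6.42 and 6.21), Z (7.08 and 5.35) and the triplet ZScG (6.25 and 5.65) were nearest to control. All 34 stimulated libraries lay above both controls, as they did at 3.84% of all peaks. The log2 fold change ran from 0.58 (ZScG, adjusted p = 0.0904) to 1.43 ± 0.239 (S, adjusted p = 3.11e-07), and H, Z and ZScG were the 3 that did not pass. Which of the gene's alternative starts, if any, this peak covers was not determined here.

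Ciita +16.2 kb (chr16:10495869-10496573) and Ciita +18.4 kb (chr16:10498024-10498723) opened together. Their group means had a Pearson correlation of 0.84 over the 18 groups, which share the libraries' depth and scaling. At +16.2 kb control had 4.26 and 4.05 CPM, Z 4.99 and 5.56, S 11.4 and 12.7, ScG 11.4 and 11.3, and PScG 14.7 and 12.8. These 3 high groups did not overlap any other group, and all 34 stimulated libraries lay above both controls. Among the 3 the gaps were narrow, with a library at 11.4 CPM in both S and ScG, and 12.7 in S beside 12.8 in PScG. The log2 fold change was 1.54 ± 0.231 with S (adjusted p = 1.11e-08) and 1.72 ± 0.232 with PScG (adjusted p = 1.05e-10), and Z was the single stimulation that did not pass, at 0.35 (adjusted p = 0.519). At +18.4 kb control had 4.59 and 2.99 CPM, S 12.8 and 11.4, and PScG 12.6 and 12.4, and here Z stood high, at 8.92 and 9.54 CPM (log2 fold change 1.30 ± 0.264, adjusted p = 0.000208). LH, at 7 and 3.97 CPM, overlapped control and was the one stimulation not called (0.57, adjusted p = 0.114). The calls for H, L and PLH at +16.2 kb were lost when either control library was left out, and also without H replicate 2, L replicate 2 and PLH replicate 1, respectively, and those for H, L, PLH, Z and cG at +18.4 kb were lost without control replicate 2.

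**Figure D3:**
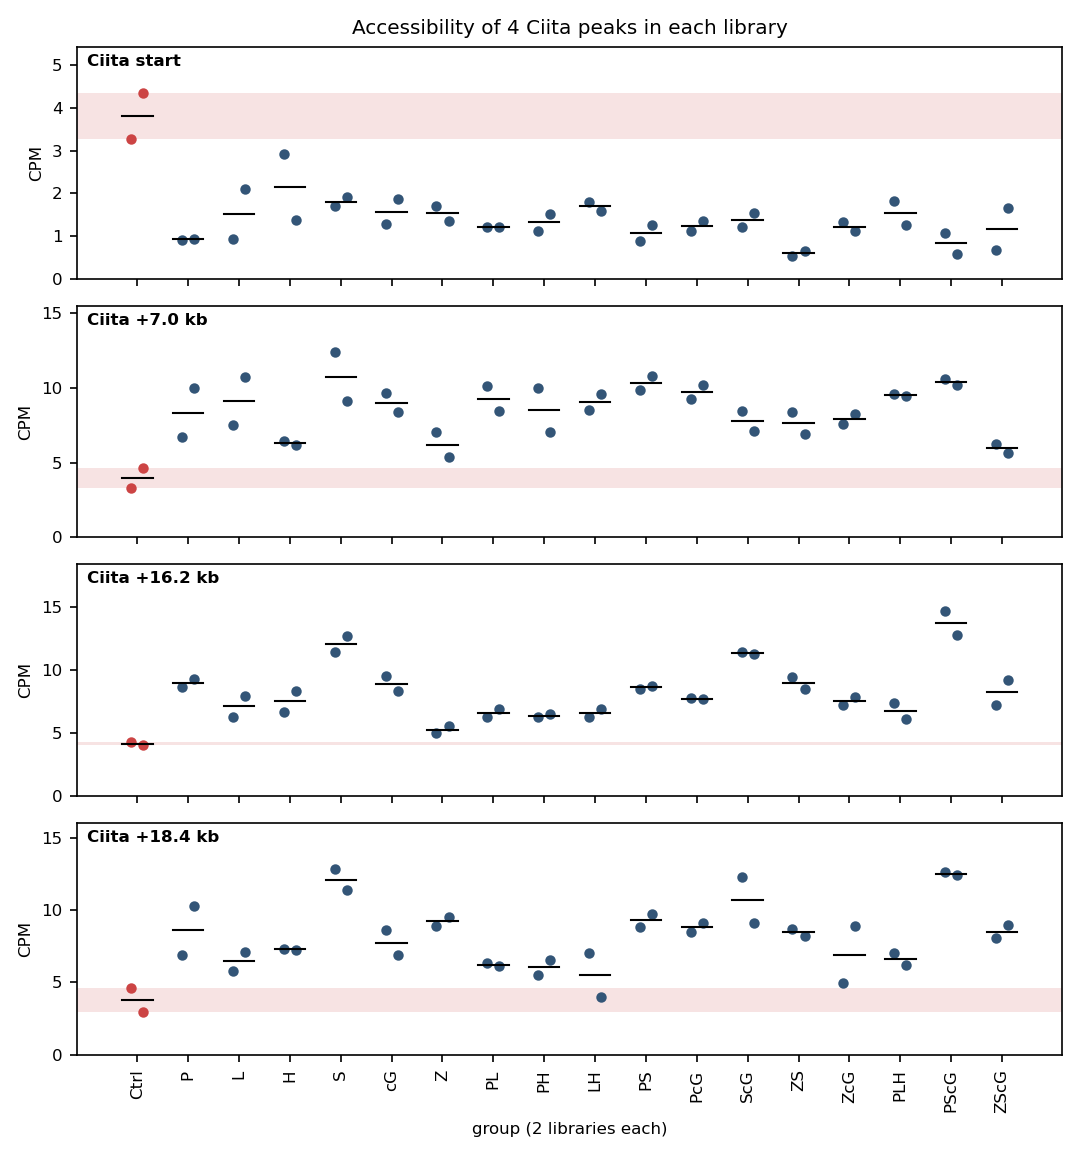
Each point is the TMM-scaled CPM of 1 library (2 per group, bars at their mean) at 4 Ciita peaks, with the band marking the range of the 2 control libraries (red). At the start peak all stimulated libraries lie under the band, and at +7.0 kb and +16.2 kb all lie above it.

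Smaller Ciita peaks moved both ways. At +3.5 kb control had 0.328 and 0.0965 CPM and PScG 2.96 and 1.92, clear of all other groups, a log2 fold change of 3.50 ± 0.806 (adjusted p = 0.000168). That peak was higher also in cG, PcG, ScG and ZScG, which are the other groups with cG except ZcG (1.94, adjusted p = 0.127). The call for PScG held in all 12 alternatives, whereas that for cG was lost in 6 and that for ZScG in 4. At +20.8 kb, from 5.79 and 6.94 CPM in control, 10 stimulations were lower, with the lowest level in PLH (2.67 and 1.84 CPM, log2 fold change -1.49 ± 0.326, adjusted p = 0.000105), and Z had 6.95 and 6.92 CPM, close to the higher control library. At +15.2 kb, L, PL, PH, LH, PLH and ZS were lower, down to -1.81 in LH. The peak at +2.5 kb was lower in Z and ZScG only, and both calls were lost without control replicate 2. Nor was that peak called by the test of any difference among groups (adjusted p = 0.35). Ciita +20.8 kb, Ciita +15.2 kb and, below, the peaks Cd74 -1.8 kb, Cd74 +10.3 kb, H2-DMa +11.9 kb, H2-DMa +12.8 kb, H2-Eb1 -0.9 kb, H2-Eb1 +19.5 kb, H2-Ab1 -1.5 kb, H2-DMa +1.9 kb, H2-DMa +13.9 kb and H2-DMb1 +6.0 kb were picked for description after their values were seen.

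Over the 5 H2 genes (H2-Ab1, H2-Aa, H2-Eb1, H2-DMa and H2-DMb1), 129 of 595 tests were higher (21.7%, against 13% of all peaks) and 1 was lower. The start peaks of H2-Aa and H2-Eb1 were called in 0 of 17 stimulations each by edgeR and by DESeq2, with 1 unadjusted p under 0.05 at each, and that of H2-Ab1 was called in 3. Across the 7 genes, start peaks gave 15 higher and 15 lower tests of 119 (12.6% each, against 13% and 12.3% of all peaks), of which 11 higher tests came from the start peak that also covers Brd2 and 14 lower ones from Ciita. The other 51 peaks gave 176 higher (20.3%) and 22 lower (2.54%) of 867, and the difference between start peaks and the others was not tested.

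H2-Ab1 encodes the β chain of I-A, the class II molecule of C57BL/6 mice. Its start peak (chr17:34262959-34263578) had 4.26 and 4.63 CPM in control, 9.46 and 7.74 with ZS, 7.71 and 6.95 with PS and 5.47 and 10.1 with ZScG. All but 1 of the 34 stimulated libraries (PScG replicate 2, at 4.55 CPM) lay above both controls. The test called ZS, at a log2 fold change of 0.94 ± 0.270 (adjusted p = 0.0041), PS, at 0.71 ± 0.261 (adjusted p = 0.0241), and ZScG, at 0.78 ± 0.281 (adjusted p = 0.0228). The ZScG call was lost when either control or ZScG replicate 2 was left out and after thinning to one depth. Calls for ZS and PS were not followed through the alternatives. In the test of any difference among groups this start peak did not pass (adjusted p = 0.182). At H2-Ab1 -5.3 kb (chr17:34257425-34258403) control had 8.3 and 8.2 CPM and PScG 14.2 and 16.7, above every other group (0.91 ± 0.196, adjusted p = 5.81e-05). That peak was higher in P, L, PL, PH, PLH and PScG, all of which contain P or L, while LH, PS and PcG, which also do, did not pass and Z (8.27 and 6.82 CPM) and ZScG (10.6 and 6.76) overlapped control. The calls for P and L were lost when either control was left out. At H2-Ab1 -1.5 kb all 34 stimulated libraries exceeded both controls (5.46 and 5.69 CPM), and 6 stimulations passed, led by ZScG (10.8 and 8.96 CPM, 0.83 ± 0.242, adjusted p = 0.00403). This peak, too, was not called by the test of any difference among groups (adjusted p = 0.0946).

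H2-Aa encodes the α chain that pairs with it. Its start peak (chr17:34287636-34288180), which covers the promoter with all 3 boxes shown above, had 3.82 and 4.53 CPM in control and 1.98 to 8.55 in the stimulated libraries, with a median of 4.45. Control lay in the middle of the groups, and the log2 fold changes ran from -0.59 in LH and Z to 0.64 in ZScG (lowest adjusted p = 0.105), while the test of any difference among groups called the peak (adjusted p = 0.0197). Upstream, H2-Aa -6.0 kb (chr17:34293255-34294297, outside protein-coding genes) had 4.37 and 3.76 CPM in control, 8.7 and 6.76 with S, 6.84 and 8.45 with cG, 9.67 and 9.95 with ZS, and 11.8 and 9.93 with ZScG. The 9 stimulations that contain S or cG were all higher, and none of the others passed, with log2 fold changes up to 1.43 ± 0.263 in ZScG (adjusted p = 3.05e-06). L, which did not pass, had 6.57 and 6.04 CPM and a log2 fold change of 0.63, beside 0.69 in PS, which did. P (5.12 and 4.26 CPM), PL (4.45 and 4.38), PH (5.26 and 3.71) and LH (4.89 and 4.44) lay closest to control, and the calls for S and cG alone were lost without control replicate 2. H2-Aa -8.4 kb, between H2-Aa and H2-Eb1, was higher in PcG, ZS and ZScG (ZScG 0.85).

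H2-Eb1 encodes the β chain of I-E, which has no α chain partner in C57BL/6 mice because H2-Ea is not expressed in that strain. The start peak (chr17:34305574-34306075) had 3.6 and 3.67 CPM in control, and stimulated libraries ranged from 3.01 to 6.82, 23 of 34 above both controls and 11 below. The log2 fold changes were -0.18 to 0.65, with a lowest adjusted p of 0.0863. H2-Eb1 -7.1 kb (chr17:34298573-34298998) had 0.437 and 0.772 CPM in control, 2.29 and 3.38 with S, 4.18 and 3.31 with PcG, 4.09 and 2.84 with ScG, and 4.85 and 4.12 with PScG. It was higher in 13 stimulations, all but P, H, Z and ZcG, with log2 fold changes up to 2.85 ± 0.474 in PScG (adjusted p = 1.59e-07). H2-Eb1 -0.9 kb, just upstream of the start peak, rose in 8 stimulations, up to 1.29 ± 0.295 in PScG (8.08 and 7.25 CPM, against 2.62 and 3.57 in control, adjusted p = 0.000139).

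**Figure D4:**
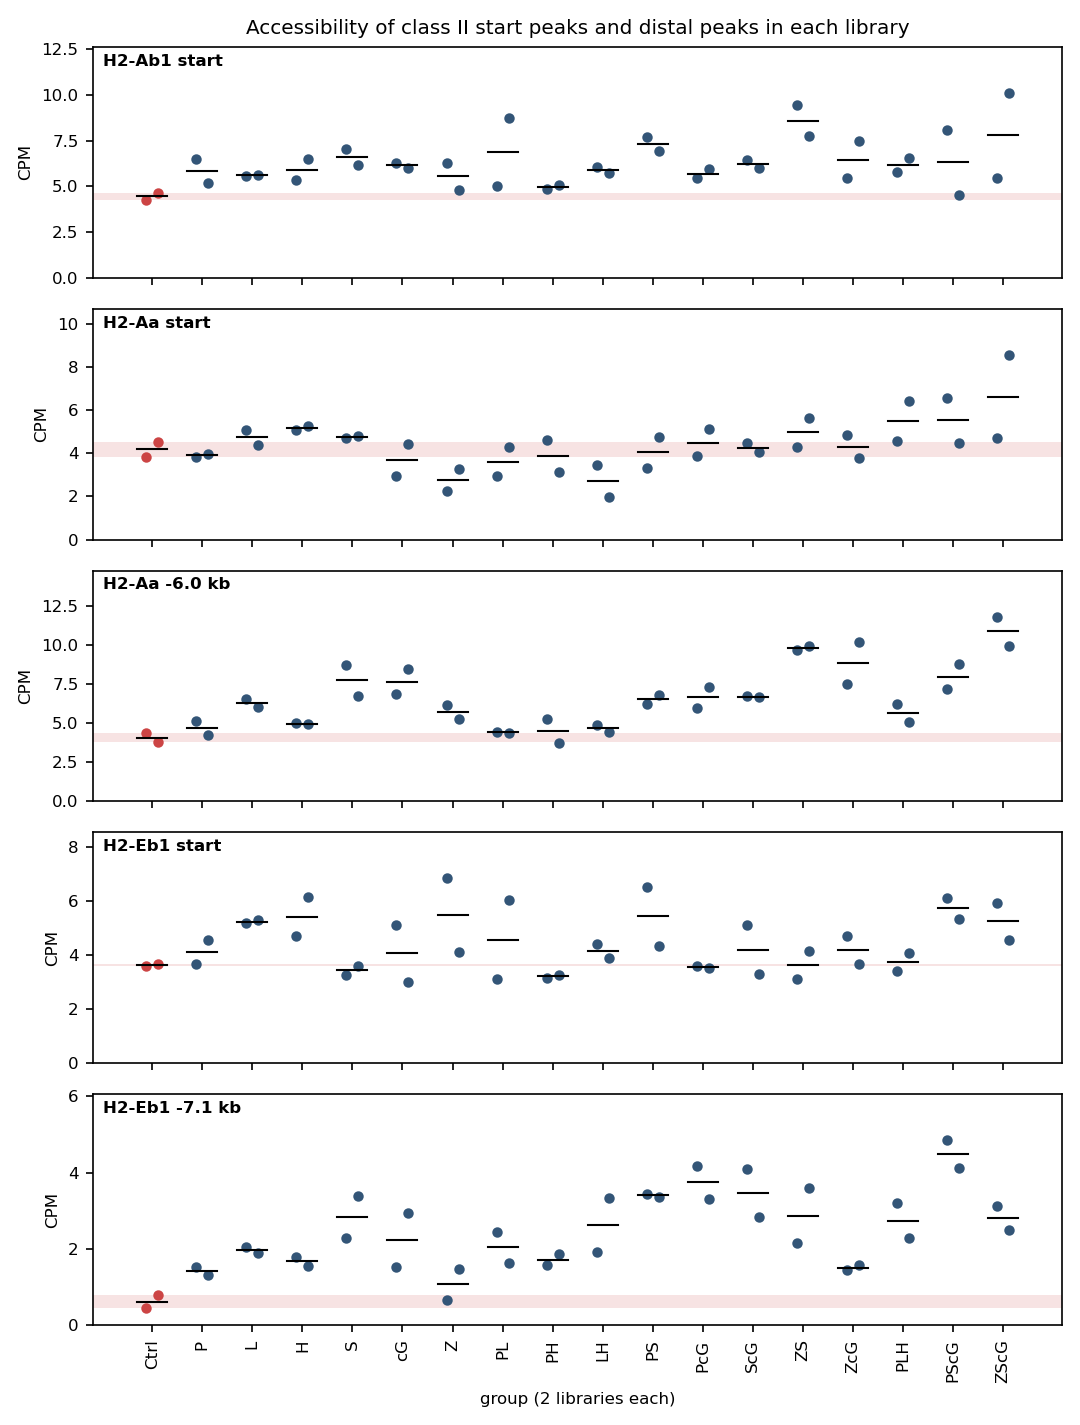
Each point is the TMM-scaled CPM of 1 library (2 per group, bars at their mean) at the start peaks of H2-Ab1, H2-Aa and H2-Eb1 and at H2-Aa -6.0 kb and H2-Eb1 -7.1 kb, with the band marking the range of the 2 control libraries (red). Stimulated libraries lie on both sides of the band at the H2-Aa and H2-Eb1 starts, and 32 and 33 of 34 lie above it at H2-Aa -6.0 kb and H2-Eb1 -7.1 kb.

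Downstream of H2-Eb1, the peak at +16.4 kb (chr17:34322169-34322425, outside protein-coding genes) had 0 counts in both control libraries. The limit of 3 counts over the control group corresponds to 0.154 CPM, a limit that covers counting error only. PcG had 42 counts over its 2 libraries and was at least 7.74-fold higher, S had 32 and was at least 6.6-fold higher, ZScG had 16 and was at least 6.42-fold higher, and PScG had 24 and was at least 6.2-fold higher. The test called 12 stimulations, and of the 7 followed through the alternatives, S, PScG and ZScG held in all, while P, L, H and PLH were lost when either control was left out. Levels were low throughout, at most 1.33 CPM, and Z (0 and 0.21 CPM), cG (0.0796 and 0.287) and ZcG (0 and 0.556) were lowest after control. H2-Eb1 +19.5 kb, which overlaps H2-Eb2, was higher in 9 stimulations, and all 34 stimulated libraries exceeded both controls. However, the test of any difference among groups did not call it (adjusted p = 0.391).

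Cd74, the invariant chain, had a broad start peak. It spans 4130 bp on chromosome 18, had 39.7 and 39.3 CPM in control and 30.5 to 50.6 CPM in the stimulated libraries. The log2 fold changes were -0.31 to 0.19, and LH alone passed, at -0.31 ± 0.115 (30.5 and 33.2 CPM, adjusted p = 0.0389). The test of any difference among the 18 groups called it (adjusted p = 0.00184). Of the 17 steps between neighbouring group means, 0 separated groups without overlap. Per kilobase of peak, the mean level at the Cd74 start was 9.58 CPM, beside 10.1 at H2-Ab1, 8.73 at H2-Eb1, 8.06 at H2-Aa, 7.42 at H2-DMb1 and 3.47 at Ciita. The small peak at Cd74 -1.8 kb opened in 10 stimulations, from 1.2 and 1.35 CPM in control to 3.67 and 3.63 in PcG (1.51 ± 0.406, adjusted p = 0.00166), with all 34 stimulated libraries above both controls. Cd74 +10.3 kb, which lies in Tcof1, was lower in PH and ScG. Neither Cd74 -1.8 kb (adjusted p = 0.0643) nor Cd74 +10.3 kb (adjusted p = 0.579) was called by the test of any difference among groups.

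H2-DMa and H2-DMb1 encode the 2 chains of H2-DM, the peptide exchange factor. The peak over the H2-DMa start (chr17:34117812-34123116) is 5305 bp wide and also covers part of Brd2, a bromodomain gene, so its counts cannot be split between the genes. The start used was the most upstream in the promoter table, which also held a start of this gene at 34125518, outside the peak. The promoter at the start used held GCAAC on the other strand, from -7 to -3, but no CCAAT or TGACGTCA. Which start H2-DMa uses in these cells was not determined here, so the name start peak follows only from the rule. This wide peak had 79.3 and 82.7 CPM in control, 73.2 and 73.3 in PH, 142 and 132 in ZS, 125 and 124 in PScG and 142 and 146 in ZScG. ZScG and ZS were the highest groups, clear of all others, and PH lay below control. It was called higher in 11 stimulations, up to 0.83 ± 0.0888 in ZScG (adjusted p = 3.58e-15), and without the peaks over Brd2 the whole set had 177 higher and 37 lower tests. Its Z call was lost in 6 of 12 alternatives, among them either control or either Z library left out. The S call was lost without control replicate 1, and those for L, cG, PScG and ZScG held in all.

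Some peaks inside H2-DMa that do not touch Brd2 also opened. H2-DMa +1.9 kb rose in 9 stimulations, from 0.874 and 2.8 CPM in control to 5.39 and 5.47 in PScG, with the control libraries far apart (1.53 ± 0.357, adjusted p = 0.000203). H2-DMa +13.9 kb rose in 8, from 0.655 and 0.289 CPM to 2.15 and 1.94 in ZS (2.11 ± 0.623, adjusted p = 0.00535). The stronger peak H2-DMa +12.8 kb had 15 and 17.4 CPM in control, and its log2 fold changes ran from -0.21 to 0.50. ZScG alone passed there (25 and 20.5 CPM, adjusted p = 0.00915). At the H2-DMb1 start (chr17:34152713-34153424), control had 4.15 and 5.11 CPM, the stimulated libraries 2.93 to 9.38, and ZScG alone passed (9.38 and 5.65 CPM, 0.71 ± 0.286, adjusted p = 0.0442). That call was lost when either control library or ZScG replicate 1 was left out and after thinning to one depth. H2-DMb1 +6.0 kb rose in L, S, PS, PcG, ScG and PScG, up to 2.08 ± 0.544 in PS (2.63 and 2.99 CPM, against 0.218 and 1.06 in control, adjusted p = 0.00113). H2-DMb1 -10.1 kb, over H2-DMb2, had the highest mean CPM of the H2-DMb1 peaks and was not called in any stimulation, by edgeR, by DESeq2 or at an unadjusted p under 0.05 (-0.30 to 0.28), although the test of any difference among groups called it (adjusted p = 0.0392).

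Where a ligand pair departed from the sum of its single ligands on the log2 scale, it moved the peak less than that sum. Of 464 tests of that departure (8 pairs), 24 were negative (5.17%, against 3.11% of all peaks) and 0 positive (against 2.07%), with 11 positive at an unadjusted p under 0.05 and 0 by DESeq2, and the median was -0.16. Of the 24, 16 lay at 3 Ciita peaks: +18.4 kb departed in 7 pairs, +16.2 kb in 5 and +7.0 kb in 4. At Ciita +18.4 kb the log2 fold changes of S and Z were 1.69 and 1.30, their sum 2.99, and that of ZS 1.17, a departure of -1.82 ± 0.342 (adjusted p = 6.71e-05). At Ciita +7.0 kb ScG gave 0.97 where S and cG summed to 2.60 (-1.63 ± 0.328, adjusted p = 5.99e-05). Each of these departures contains the same 2 control libraries, which were the lowest group at all 3 peaks, and without control replicate 1 the count of departures was 16.

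**Figure D5:**
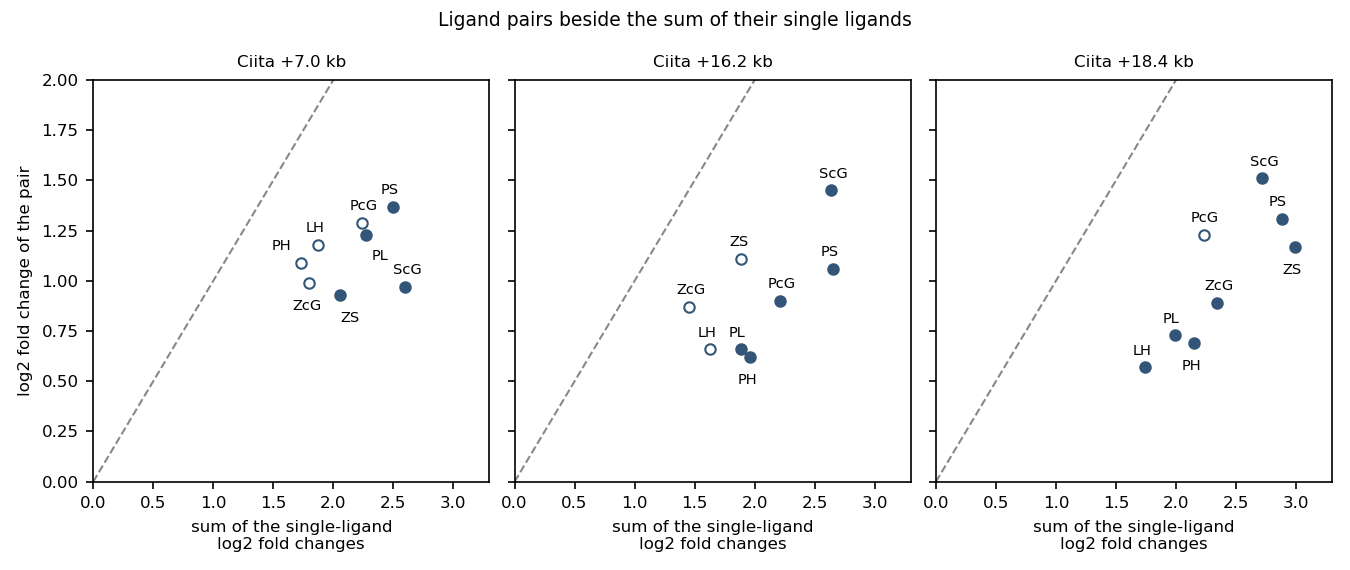
For each of 8 ligand pairs, the log2 fold change of the pair against control is plotted over the sum of those of its single ligands at 3 Ciita peaks, with the dashed line where both are equal and filled points where the departure had an adjusted p under 0.05. All 24 points lie below the line.

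Direct comparisons of a pair with one of its single ligands do not contain control. Of 928 such tests, 23 were higher (2.48%, against 3.56% of all peaks) and 5 lower (0.539%, against 2.93%). Of these, 11 higher tests of 58 came from ZS against Z, where 6.63% of all peaks were higher. They included Ciita +16.2 kb (0.76 ± 0.241, adjusted p = 0.0194), H2-Aa -6.0 kb (0.79 ± 0.253, adjusted p = 0.0201), H2-Eb1 -7.1 kb (1.4 ± 0.466, adjusted p = 0.0265) and H2-DMa +11.9 kb (1.97 ± 0.377, adjusted p = 2.63e-05). Adding cG or S to P raised H2-Eb1 -7.1 kb, by 1.41 ± 0.386 (adjusted p = 0.00514) and 1.26 ± 0.386 (adjusted p = 0.0115). Adding L to P lowered Ciita +15.2 kb (log2 fold change -1.52 ± 0.477, adjusted p = 0.026). Over all pairs, 28 tests were called in either direction, and 18 without Z replicate 2 or without ZS replicate 2.

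Of 522 tests of a triplet against one of its pairs, 3 were higher (0.575%, against 0.495% of all peaks) and 0 lower (against 0.611%), with 6 lower at an unadjusted p under 0.05 and 0 by DESeq2. PScG against PS raised Ciita +3.5 kb by 2.57 ± 0.641 (adjusted p = 0.0229), PScG against PcG raised Ciita +16.2 kb by 0.83 ± 0.199 (adjusted p = 0.0217), and ZScG against ScG raised the peak over the H2-DMa start and Brd2 by 0.47 ± 0.0875 (adjusted p = 0.000503). Without PScG replicate 1 the count was 1. The departure of a triplet from what its pairs and singles add up to was positive in 5 of 174 tests (2.87%, against 0.84% of all peaks) and negative in 0 (against 0.721%, with 2 at an unadjusted p under 0.05 and 0 by DESeq2), again at Ciita +16.2 kb and +18.4 kb and at H2-Ab1 -1.5 kb.

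Other genes of the pathway were read over the same kind of window, where 13% of tests of all peaks were higher and 12.3% lower. The remaining class II genes, H2-Oa and H2-Ob (which encode the inhibitor of H2-DM), H2-Eb2 and H2-Ea, with 24 peaks not counted above, were higher in 43.4% of 408 tests and lower in 0.245%, with a median log2 fold change of 0.91. All of H2-DMb2 lay within the windows already described. Factors that bind the X and Y boxes (Rfx5, Rfxap, Rfxank, Nfya, Nfyb, Nfyc and Creb1, 34 tested peaks) were higher in 8.65% and lower in 13.8%. The 3 Rfx5 peaks were called in 0 of 51 tests by edgeR, by DESeq2 and at an unadjusted p under 0.05, and those of Rfxap were lower in 15 of 51. Genes of endosomal processing (Ctss, Ctsl, Ctsb, Ctsd, Lgmn and Ifi30) were higher in 13.6% and lower in 8.05% of tests. Ctsb, a cathepsin, and Ifi30, a thiol reductase of the endosome, were higher in 63 of 204 and 41 of 170 tests, and Ctsd was lower in 41 of 204. For Marchf1, the ligase that removes class II from the surface, 88 of 697 tests were higher and 116 lower, and for Cd83, a maturation marker that opposes it, 58 of 187 were higher and 3 lower. Among genes that regulate Ciita, Irf2 was lower in 105 of 425 tests and Nfkb1 higher in 260 of 782.

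The pattern of the Ciita start peak over the 18 group means was most like that of peaks nearest to Sfi1 (Pearson r 0.902, 25771 bp away), Vrk1 (0.887, 72569 bp away) and Olfr1324 (0.876, 145503 bp away), and of peaks in Rhobtb1 (0.869) and Cyfip1 (0.868), among 32103 peaks with a mean of at least 5 CPM outside the 7 windows. All 5 had their highest group mean in control. The H2-Ab1 start peak was most like peaks in Mgat4e (0.89), Slc2a4 (0.869), Hsd3b7 (0.846), Wdr4 (0.845) and Telo2 (0.845). These are the highest values of a search, given as a description over group means that share depth and scaling.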

How the data were processed

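ATAC-seq was available for 36 libraries of 18 groups, grouped by sample title. The authors deposited raw counts per peak, whole numbers without normalization, and the peak positions (chromosome, start and end) as another list. Bowtie2 2.2.9, MACS2 1.4, bedtools, featureCounts and mm10 appear in the submitters' processing notes, with no order or role. Whether peaks were called on pooled libraries, how duplicates were treated and whether read ends were shifted for the transposase are not given in the sources used here. All 36 count columns were matched, and 0 were left unused.

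The 7 genes, the pathway lists and the tests were chosen with earlier results of these data known. A single peak over the mitochondrial genome, 44.1% to 63.1% of counts, was left out. Counts were filtered with filterByExpr (minimum count 10), which removed 286 peaks and left 119464, scaled by TMM, and fitted with edgeR 4.0.16 in R 4.3.3 (quasi-likelihood test, robust, trended dispersion, 18 residual degrees of freedom). Benjamini-Hochberg adjustment ran over all tested peaks of a contrast, and an adjusted p under 0.05 counted as called. Log2 fold changes are edgeR's, each ± value after one is its SE, and CPM are TMM-scaled over counts outside the mitochondrial peak. The fit was tested on simulated data. Total counts were 19097027 to 39977088 per library. Replicates of every group differed by more than counting noise (chi-square per degree of freedom 2.05 to 3.23).

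Peaks named with values were, for each gene, the start peak, the one with the highest mean CPM and the one with the lowest p for any difference among groups, and for each single ligand the called peaks with the highest and lowest log2 fold change. Starts came from the RefSeq promoter table or, for Ciita, H2-Ab1 and Cd74, were taken as the gene end nearest to the strongest peak. Alternatives were DESeq2 1.42.0 (Wald test and size factors), total-count scaling, offsets by abundance, no filter, the mitochondrial peak kept, thinning to one depth, a replicate block, no flank, and each library left out. A fit of only the 10 libraries of control, Z, ZcG, ScG and ZScG, and a count without the peaks over Brd2, were added after seeing the data. Some genes of the marker and pathway lists, and the sums over their lists, are not reported here.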

Additional observations from a re-analysis of the deposited data

Results flagged for a closer look

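The results below are departures on the log2 scale, each called by edgeR's quasi-likelihood test with Benjamini-Hochberg adjustment over all peaks. For a pair, the departure is from the sum of its single ligands. It says that the effect of a ligand at that peak differed with and without the other. For a triplet, it is from what its pairs and singles add up to. It says that the departure of a pair differed with and without the remaining ligand. A positive triplet departure thus does not place the triplet above the sum of its single ligands. Every departure contains the same 2 control libraries. At Ciita +18.4 kb the pair departures were -1.17 (LH), -1.46 (PH), -1.26 (PL), -1.58 (PS), -1.21 (ScG), -1.44 (ZcG) and -1.82 (ZS), and the triplet departures were 1.77 (PLH), 1.61 (PScG) and 1.63 (ZScG). At Ciita +16.2 kb the pair departures were -1.32 (PcG), -1.34 (PH), -1.24 (PL), -1.59 (PS) and -1.19 (ScG), and that of the triplet PScG was 2.07. At Ciita +7.0 kb the departures were -1.04 (PL), -1.12 (PS), -1.63 (ScG) and -1.12 (ZS). At H2-Ab1 -1.5 kb they were -1.06 (PcG), -0.95 (PL) and -0.95 (ScG), with 1.54 for the triplet PScG. The peak H2-Aa -6.0 kb departed by -1.13 in ScG. In LH, the H2-DMa start peak departed by -0.40, H2-DMa +1.9 kb by -1.54 and H2-DMa +13.9 kb by -2.64. H2-Eb1 +16.4 kb departed by a fitted -6.68 in PS, a value that depends on how the fit treats the 0 counts of both control libraries and is no bound.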

How the results depend on the processing

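Calls of single ligands and triplets against control were followed at the peaks named by rule, and calls of pairs were not. Of the 64 calls followed, 33 held under every alternative tried and 0 reversed. The other 31 were lost under at least 1, most often when a library of the groups compared was left out. Scaling by total counts gave 330 higher and 22 lower tests against control, 71 pair departures, 20 triplet departures, 12 triplet tests against a pair and 50 pair tests against a single ligand. Tests of a triplet against a pair numbered 5 with DESeq2 size factors, 7 with offsets by abundance and 5 with the DESeq2 Wald test, which also called 24 lower tests against control. Thinned to one depth, 13 pair and 2 triplet departures were called. Within the gene bodies alone, from fewer peaks, there were 105 higher and 35 lower tests, beside 191 and 37 with the flanks. Most of the lower tests but fewer of the higher ones thus lay in the bodies. In the bodies, 21 peaks differed among groups and 18 pair tests against a single ligand were called. With only the 10 libraries whose mitochondrial share was near that of control, a fit chosen after seeing the data, Z, ZcG, ScG and ZScG gave 39 higher and 6 lower tests against control, beside 49 and 10 in the full fit. Leaving out 1 library at a time gave 94 to 192 higher and 16 to 38 lower tests, 30 to 34 peaks that differed among groups, 16 to 25 pair departures, 2 to 6 triplet departures, 1 to 3 triplet tests against a pair and 18 to 29 pair tests against a single ligand. Triplet departures fell to 2 without P replicate 2, S replicate 1 or cG replicate 1, and to 3 without control replicate 2, PS replicate 1, PScG replicate 2 or PcG replicate 1. With replicate number as a block there were 191 higher and 33 lower tests, 24 pair and 5 triplet departures; the numbers do not pair the libraries, since same-numbered libraries of 153 pairs of groups correlated at -0.04 to 0.03. Peaks under about 1 CPM rest on few counts and differ from control only when the change is large.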
